A study of Homo sapiens with 14 samples.

Results

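BEAS-2B is an established line of human bronchial epithelial cells, in which KLF4 was mapped on chromatin by ChIP-seq. The sites described here are the KLF4 intervals of untreated Nrf2 knockout (Nrf2 KO) cells that lie far from genes' starts and were listed in neither WT library. They were chosen by the peak calls themselves: the summit lay more than 10 kb from every annotated gene start and outside every exon, and the interval shared not even 1 bp with an interval of the WT As3+ or the WT control list. Of 76521 Nrf2 KO control intervals on chromosomes 1 to 22 and X, 26350 passed the distance and exon limits. Of these, 24066 were absent from both WT lists and are called KO-only distal sites below. They make up 91.3% of the distal intervals, beside 78.3% of all Nrf2 KO control intervals that had no WT overlap, and since absence was part of the choice, nothing is read from these shares.

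The study compared WT and Nrf2 KO cells, untreated (control) or given 1 µM As3+ (trivalent arsenic) for 6 h, with 1 KLF4 library for each of the 4 conditions. Nrf2 had been removed with CRISPR-Cas9 and 2 guides against exon 2, and colonies that still made the protein served as WT. The sources used here do not say which clone gave the chromatin, and the KLF4 input came from untreated WT cells. With 1 library a condition no difference has a replicate check, so no p-value is given, and the 95% intervals below (exact Clopper-Pearson for shares, exact Poisson for counts) cover counting error only.

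KLF4 is a zinc-finger transcription factor of epithelia and of stem cells that reads GC-rich CACCC-type elements, and it can work both at promoters and at enhancers inside introns or between genes. In epithelial cells, enhancers commonly also hold sites for AP-1, the Jun and Fos dimer that answers stress and growth signals, and for TEAD and RUNX factors. Nrf2, the regulator of the oxidative stress response, binds the antioxidant response element (ARE) together with small MAF proteins. Alu elements, the most abundant short repeats of the human genome, are GC-rich, end in a run of A and are dense in introns of gene-rich regions.

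The sequences at some summits show what kinds of DNA the list holds. Each window below is 200 bp of GRCh38/hg38, plus strand, centred on a summit. The 3 sites with the largest −log10 p come first, with capitals in the opening pair on the first stretch of the length at which the window best matches itself, and on CpG dinucleotides in the third. The next 3 are among the strongest sites holding a KLF word, an AP-1 word and a CG run, and the last is a strong site with a CG run in AT-rich sequence, which was picked after its values were seen. In those 4, capitals mark the word.

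chr16:1025264-1025463: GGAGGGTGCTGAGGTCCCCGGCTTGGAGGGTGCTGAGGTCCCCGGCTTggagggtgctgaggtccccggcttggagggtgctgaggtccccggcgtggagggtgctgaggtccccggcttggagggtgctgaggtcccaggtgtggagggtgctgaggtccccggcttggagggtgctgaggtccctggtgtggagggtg

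chr6:168841038-168841237: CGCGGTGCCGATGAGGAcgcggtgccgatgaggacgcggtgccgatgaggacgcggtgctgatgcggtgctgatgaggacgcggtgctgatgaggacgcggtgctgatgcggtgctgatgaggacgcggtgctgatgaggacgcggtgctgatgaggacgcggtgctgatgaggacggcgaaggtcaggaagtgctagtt

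chr7:64903336-64903535: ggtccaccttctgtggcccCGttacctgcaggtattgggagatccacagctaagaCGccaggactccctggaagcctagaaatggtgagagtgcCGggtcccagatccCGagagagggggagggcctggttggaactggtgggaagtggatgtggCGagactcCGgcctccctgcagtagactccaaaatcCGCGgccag

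chr22:37387755-37387954: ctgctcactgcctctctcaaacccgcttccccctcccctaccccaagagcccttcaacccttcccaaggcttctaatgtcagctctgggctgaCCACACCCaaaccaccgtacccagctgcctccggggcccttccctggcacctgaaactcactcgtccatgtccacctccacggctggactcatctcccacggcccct

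chr1:236097175-236097374: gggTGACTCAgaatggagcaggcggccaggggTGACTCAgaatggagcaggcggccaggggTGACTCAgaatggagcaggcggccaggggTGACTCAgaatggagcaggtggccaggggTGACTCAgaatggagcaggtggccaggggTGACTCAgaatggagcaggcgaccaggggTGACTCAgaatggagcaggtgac

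chr14:64294404-64294603: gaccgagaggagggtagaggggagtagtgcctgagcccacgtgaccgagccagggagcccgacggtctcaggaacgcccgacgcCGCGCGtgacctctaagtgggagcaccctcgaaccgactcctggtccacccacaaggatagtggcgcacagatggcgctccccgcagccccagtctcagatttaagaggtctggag

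chr4:181934010-181934209: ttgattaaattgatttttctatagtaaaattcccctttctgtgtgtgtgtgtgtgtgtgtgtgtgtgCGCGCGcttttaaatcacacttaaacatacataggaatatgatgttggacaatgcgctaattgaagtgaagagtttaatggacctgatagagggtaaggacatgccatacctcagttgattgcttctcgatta

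The chromosome 16 window is a tandem array between genes, 43594 bp from the start of SOX8, and 97% of its bases recurred 48 bp further on. The chromosome 6 window, 20715 bp from the nearest gene start, recurred at 17 bp in 74% of its bases. The AP-1 window, 32166 bp from the start of NID1, is also an array: its AP-1 word returns with a unit of 29 bp, and 98% of its bases matched at that shift. The chromosome 7 window lies in an intron of the zinc-finger gene ZNF273, the chromosome 22 window in ELFN2 and the chromosome 14 window in ESR2, the gene of estrogen receptor beta. The ESR2 window also holds TGACCGAGC, a match to the ARE word searched below. The chromosome 4 window, in the antisense gene TENM3-AS1, is a TG repeat that runs into a CG run, at a GC content of 38%.

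Most KO-only distal sites rested on few fragments. The number over a summit and the background expected there were worked out from the fold enrichment and −log10 p that the authors list. A KO-only distal site had a median of 6 fragments (range 4 to 36) over a median background of 0.624, against 9 fragments (4 to 155) over 0.899 at the 2283 distal Nrf2 KO control sites shared with WT As3+. Of the KO-only distal sites, 18023 (74.9%) had 4 to 7 fragments, 5172 (21.5%) had 8 to 10, 800 (3.32%) had 11 to 15 and 71 (0.295%) had 16 or more. The fold enrichment had a median of 4.56 (2.43 to 11.7) and −log10 q a median of 3.21 (1.02 to 24.1). A −log10 q of at least 5 was reached by 2559 sites (10.6%), against 37.0% of the shared distal sites and 21.1% of all Nrf2 KO control intervals. These values helped to choose the sites and are a description. Intervals were narrow, with a median width of 232 bp (200 to 2117 bp). The 5269 distal WT As3+ sites with no Nrf2 KO control interval, called WT As3+-only below, had near values in their own library. Their medians were 8 fragments over a background of 0.963, a fold of 4.52, a −log10 q of 2.98 and a width of 226 bp. A −log10 q of at least 5 was reached by 12.2% of them (11.3 to 13.1).

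**Figure D1:**
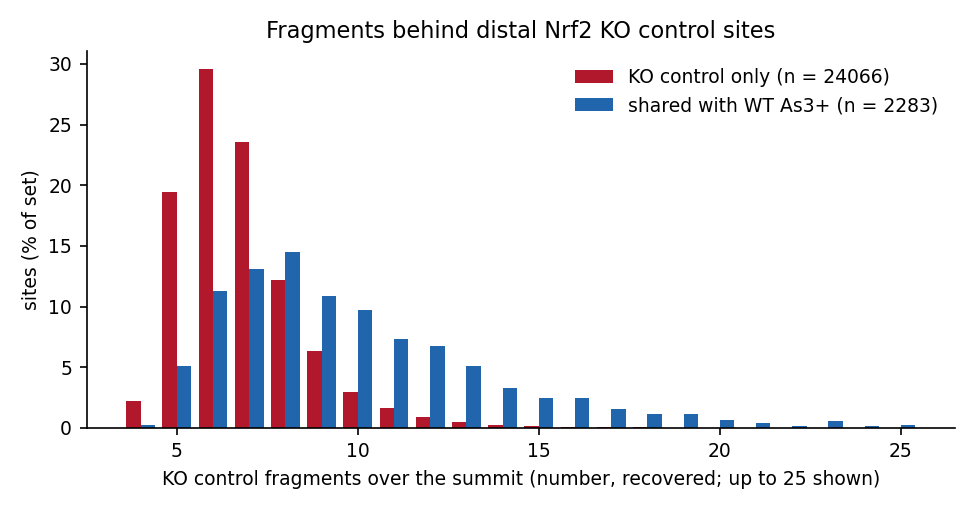
Share of distal sites (%, y axis) by the number of Nrf2 KO control fragments over the summit (x axis, up to 25), for KO-only distal sites (red bars, 1 library) and sites shared with WT As3+ (blue bars). The red bars pile up at low numbers, with 74.9% of the sites at 4 to 7 fragments against 29.8% of the shared sites.

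Absence from a list is not absence of KLF4, since each list has its own floor. Where the background was within 10% of a library's lowest, the lowest number of fragments listed was 4 in the Nrf2 KO control (lowest background 0.491), 5 in WT As3+ (0.757) and 11 in WT control (1.90). The lowest fold listed there was 3.25, 3.28 and 4.05, respectively. Of the KO-only distal sites, 23317 (96.9%) had a fold at or above the WT As3+ floor and 16363 (68.0%) at or above that of WT control. The floors of the Nrf2 KO control and WT As3+ lie close together (3.25 and 3.28). The first share was thus nearly fixed by the choice of sites, and nothing is read from it. A fold is not on a common scale across libraries, so a site with the same fold need not be listed in both. The nearest WT As3+ interval lay a median of 21044 bp away. It was within 1 kb for 1739 sites (7.23%) and within 10 kb for 7540 (31.3%), and the closest touched the edge of a WT As3+ interval in DOK7.

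Arsenic-treated Nrf2 KO cells listed next to none of these sites. Only 1 of 24066 overlapped a Nrf2 KO As3+ interval (0.00416%, 95% interval 0.000105 to 0.0231), against 0.0810% of all Nrf2 KO control intervals and 19 of the 2283 shared distal sites (0.832%, 0.502 to 1.30). The Nrf2 KO As3+ list holds 130 intervals in all, 59 of them distal by the same limits, which caps any overlap. The single site was chr12:120086932-120087430, in an intron of BICDL1 (a dynein adaptor gene) and 30371 bp from the start of RAB35. It had 11 fragments over a background of 1.25 in the Nrf2 KO control, at a −log10 q of 4.85. Its partner in Nrf2 KO As3+ had 17 fragments over 3.66, at a −log10 q of 2.22, and the nearest WT As3+ interval lay 29529 bp away.

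The sites were GC-rich for their surroundings. The 200 bp around a summit had a median GC content of 57.5% (5th to 95th percentile 42.5 to 68%), against 39% in the 10053774 tiles of 200 bp that pass the same distance and exon limits genome-wide. The shared distal sites were GC-richer still, at 64.5%, and the WT As3+-only distal sites were at 54%. CpG dinucleotides averaged 5.55 per window at KO-only distal sites, 9.75 at shared sites, 4.62 at WT As3+-only sites and 1.70 in tiles. A GC content of 50% or more with a CpG observed-over-expected ratio of 0.6 or more, the usual cut for a CpG island, was met by 10.7% of KO-only distal sites (10.3 to 11.1), 29.5% of shared sites (27.6 to 31.4) and 0.937% of tiles. Tiles weighted to the GC content of the KO-only distal sites, called GC-matched tiles below, met it in 8.10%. At WT As3+-only distal sites the share was 7.38% (6.69 to 8.12), against 6.47% of tiles weighted to their own GC content.

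The rate of sites climbed with GC content up to about 65% and fell again in the few tiles above 75%. It was 0.122 sites per 1000 tiles below 40% GC, 1.15 at 40 to 50%, 8.50 at 50 to 60%, 56.9 at 60 to 70% and 57.2 at 70% and above. In finer classes it was highest, at 76.6, from 65 to 67.5%, and fell to 57.7 from 75%, 36.8 from 77.5% and 8.74 from 80%. The largest number of sites, 10445 (43.4%), fell in the class of 50 to 60%, and 8477 (35.2%) in that of 60 to 70%. Shared sites were centred higher, with 56.9% of them at 60 to 70% GC. The part of GC content in the calls themselves was not tested.

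**Figure D2:**
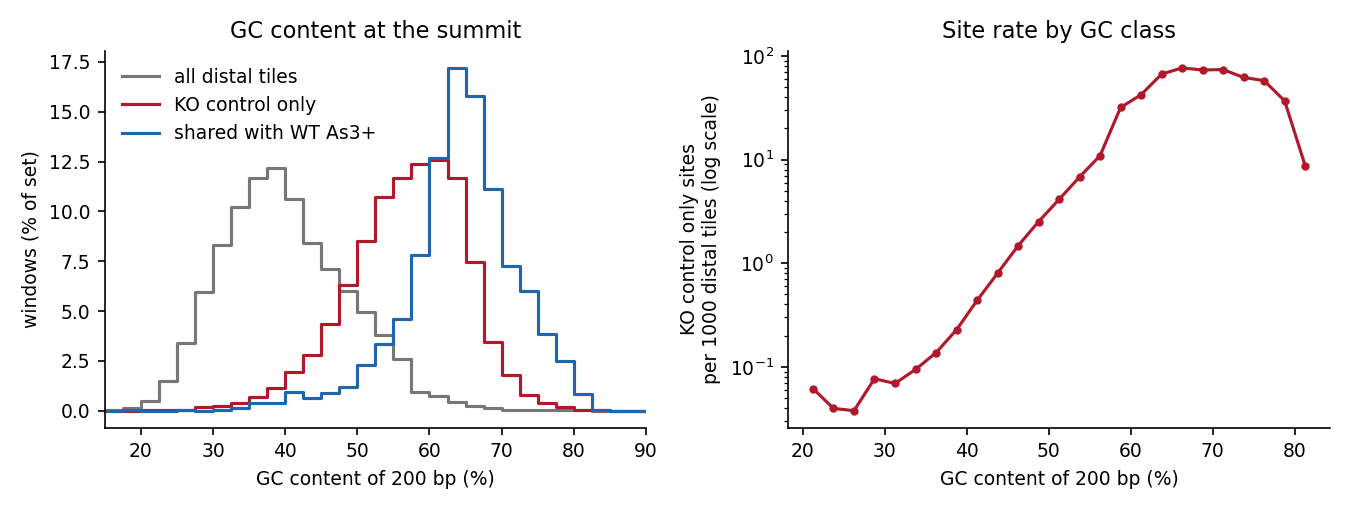
Left, share of windows (%) by GC content of 200 bp in classes of 2.5 percentage points, for all distal tiles (grey), KO-only distal sites (red) and shared distal sites (blue), with medians of 39%, 57.5% and 64.5%. Right, KO-only distal sites per 1000 distal tiles (log scale) by GC content, which rises from an overall 0.122 below 40% GC to 76.6 at 65 to 67.5% and falls to 8.74 from 80%.

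The words of AP-1, TEAD and RUNX were not above the GC-matched share at KO-only distal sites. Words were searched on both strands, and each share is set beside the GC-matched tiles. The AP-1 word (TGAGTCA or TGACTCA, the same site read on either strand) was in 2.59% of KO-only distal sites (2.39 to 2.80), against 2.84% of their GC-matched tiles, a ratio of 0.912 (0.843 to 0.986). At the shared distal sites it was in 5.96% (5.02 to 7.01) against 2.05%, a ratio of 2.90. At the 5269 distal WT As3+ sites with no Nrf2 KO control interval it was in 6.62% (5.97 to 7.33) against 2.96%, a ratio of 2.24. These intervals count each site as independent and each library is single, so the difference between the sets was not tested. The TEAD word (ACATTCC) gave ratios of 0.854, 2.09 and 1.42 in the same order, and the RUNX word (TGTGGTT) 0.861, 1.64 and 1.46. The FOX word (TGTTTAC), read by forkhead factors, had the lowest ratio of the words searched, at 0.968% of KO-only distal sites against 1.65% (ratio 0.586, 0.514 to 0.666).

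KLF words were modestly more frequent than GC content gives, and part of them stood in windows with Alu sequence. A KLF word (CCACGCCC or CCACACCC) was in 9.86% of KO-only distal sites (9.49 to 10.2), in 7.47% of GC-matched tiles and in 2.30% of all distal tiles. The ratio of 1.32 (1.27 to 1.37) was near that of the shared distal sites (1.27, 1.12 to 1.43) and below that of the WT As3+-only distal sites (1.72, 1.60 to 1.86). An Alu word (GGAGGCTGA or GGCTAATTT, 2 words of the Alu consensus) was in 999 of the 2374 windows with a KLF word (42.1%, 40.1 to 44.1), against 37.6% of GC-matched tiles with a KLF word. The same share was 12.2% against 17.1% at shared sites and 31.1% against 39.4% at WT As3+-only sites. In 322 of the 1192 windows with CCACGCCC (27%) that word was joined directly to GGCTAATTT, as it is in Alu. Among windows without an Alu word, a KLF word was in 1375 of 19640 KO-only distal sites (7%, 6.65 to 7.37) against 5.59% of GC-matched tiles without an Alu word, a ratio of 1.25 (1.19 to 1.32). The same ratio was 1.28 (1.12 to 1.46) at shared and 1.91 (1.74 to 2.09) at WT As3+-only distal sites.

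Alu words were more frequent at KO-only distal sites than GC content gives. They were in 4426 windows (18.4%, 17.9 to 18.9), against 12.0% of GC-matched tiles, a ratio of 1.53 (1.49 to 1.57). At shared sites they were in 4.16% against 5.16%, a ratio of 0.807 (0.655 to 0.982), and at WT As3+-only sites the ratio was 1.15. A run of 6 A (AAAAAA) was in 25.2% of KO-only distal sites against 14.4% of GC-matched tiles, a ratio of 1.75. This run was also above the GC-matched share at shared sites (7.58% against 5.69%) and at WT As3+-only sites (24.0% against 18.0%), with a ratio of 1.33 in both. In the class of 40 to 50% GC, 31.8% of KO-only distal sites held an Alu word against 7.90% of the tiles, and a KLF word was in 8.08% against 2.56%. At 60 to 70% GC, where Alu words were rare (2.25% against 2.87%), KLF words were at 7.56% against 6.70%. How the authors treated reads that map to repeats is not given in the sources used here.

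**Figure D3:**
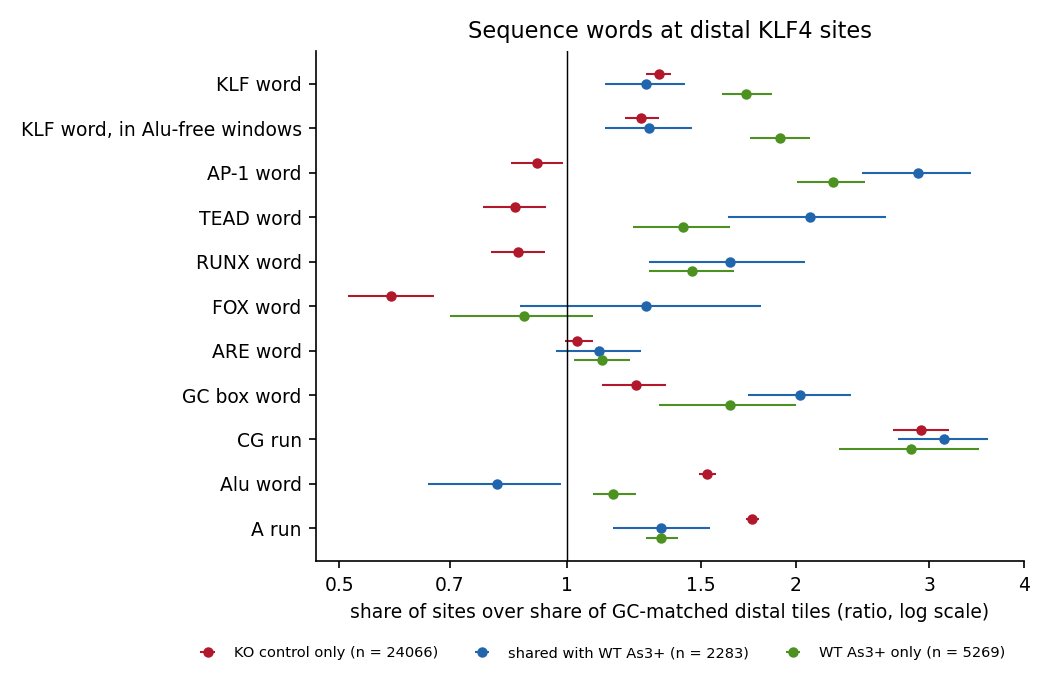
Ratio of the share of sites with a word to the share of GC-matched distal tiles (x axis, log scale) for 11 words or combinations (y axis), with 95% counting intervals, for KO-only (red), shared (blue) and WT As3+-only (green) distal sites. The red points lie below 1 for AP-1, TEAD, RUNX and FOX words and at 1.53 for Alu words. The shared sites lie above 1 for AP-1, TEAD and RUNX words, while their FOX interval (0.866 to 1.80) includes 1.

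The same shares were taken by strength. From the weakest class (−log10 q of 1 to 2) to the strongest (5 or more) the AP-1 ratio was 0.866, 0.916, 0.915 and 0.936. That of the KLF word in windows without an Alu word was 1.27, 1.24, 1.28 and 1.18. Among shared sites with −log10 q under 5, the AP-1 word was in 6.25% (5.06 to 7.63) against 2.24% of GC-matched tiles. Those shared sites had a median of 8 fragments, against 5, 6 and 7 in the KO-only classes under 5. The 641 strong WT As3+-only sites (−log10 q of at least 5) held an AP-1 word in 14.7% (12.0 to 17.6), and of the 593 among them without an Alu word 18.2% (15.2 to 21.6) held a KLF word. The 2559 strong KO-only sites held an AP-1 word in 2.38% (1.83 to 3.05), and of the 2290 without an Alu word 7.42% (6.38 to 8.57) held a KLF word. These strong classes were not equal in strength, with medians of 14 fragments at WT As3+-only and 9 at KO-only sites. The 4628 WT As3+-only sites with −log10 q under 5 held an AP-1 word in 5.51% (4.87 to 6.21). Of the 3937 among them without an Alu word, 7.92% (7.10 to 8.81) held a KLF word. Alu words were in 20.1% of the weakest class and 10.5% of the strongest, with GC-matched shares of 13.7% and 8.47%, and the ratio was 1.46, 1.54, 1.58 and 1.24 from weak to strong.

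**Figure D4:**
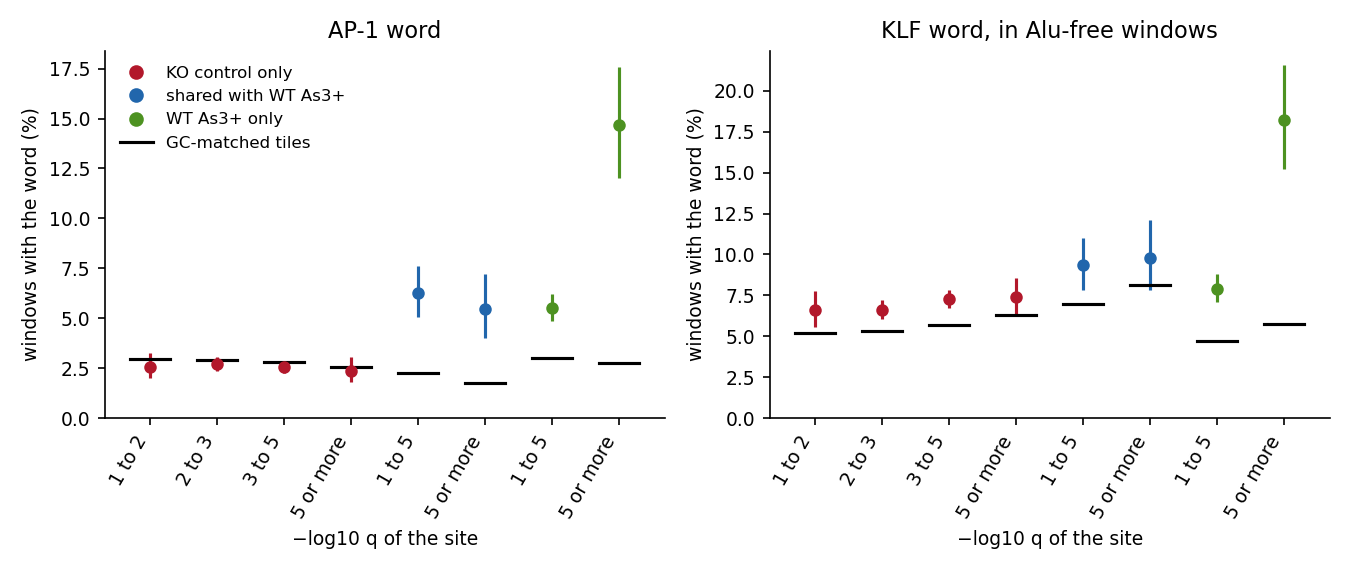
Share of sites (%, y axis) with an AP-1 word (left) and with a KLF word (right, of windows without an Alu word), by −log10 q class (x axis) of KO-only (red), shared (blue) and WT As3+-only (green) distal sites, with 95% counting intervals. Black bars are GC-matched tiles. Red AP-1 points stay at 2.38 to 2.69% in all 4 classes. WT As3+-only sites are at 5.51% under a −log10 q of 5 and at 14.7% from 5.

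The summit itself was compared with flanks 250 bp to either side, in windows of 100 bp. At KO-only distal sites the AP-1 word was in 1.21% of the central windows (1.08 to 1.36) and 1.51% of the flanks (1.40 to 1.62), whereas at WT As3+-only distal sites it was in 3.36% (2.89 to 3.88) and 2.04% (1.78 to 2.33). The shared distal sites, with 2.32% (1.74 to 3.03) and 2.52% (2.08 to 3.02), showed no central rise either. The KLF word was in 5.24% and 2.81% at KO-only distal sites, a ratio of 1.86, and the Alu words in 10.7% and 4.86%, a ratio of 2.20. The KLF ratio was 1.94 at shared and 2.71 at WT As3+-only distal sites, and the Alu ratio 1.19 and 2.01. The mean GC content of KO-only distal sites also fell from 57.4% to 51.4% between the summit and the flanks.

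The ARE word (TGACNNNGC) was as frequent as GC gives. It was in 9.03% of KO-only distal sites (8.67 to 9.40) against 8.74% of GC-matched tiles, a ratio of 1.03 (0.992 to 1.08). The GC box (GGGGCGGGG), read by SP factors and overlapping with KLF elements, was in 1.63% against 1.33%, and in 6.70% against 3.30% at shared sites. The word of the insulator factor CTCF was in 84 windows (0.349%, 0.279 to 0.432) against 0.255%. The ETS word (CCGGAAG) was in 1.43% against 1.32% and the E-box (CACGTG) in 4.27% against 3.89%.

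Of the words searched, the one furthest above its GC-matched share was the CG run (CGCGCG), of which the ESR2 and TENM3-AS1 windows above are examples. It was in 534 KO-only distal sites (2.22%, 2.04 to 2.41) against 0.757% of GC-matched tiles, a ratio of 2.93, and the ratio was much the same at shared (3.14) and WT As3+-only sites (2.84). It rose with strength, from 0.887% of the weakest class to 5.12% of the strongest. The excess was largest in AT-rich sequence: among the 1806 sites below 45% GC, 89 held a CG run (4.93%, 3.98 to 6.03), against 0.0176% of tiles below 45% GC. In 82 of those 89 (92.1%) the window also held CACACACA or its complement TGTGTGTG, as in the TENM3-AS1 window. The same share of tiles below 45% GC with a CG run was not computed, nor was the distance between these words.

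Tandem arrays such as the leading pair were few. In 351 sites (1.46%, 1.31 to 1.62) at least 70% of the bases recurred at one shift of 1 to 60 bp, against 1.82% of GC-matched tiles. A period of 4 bp was the most common, with 40 sites. Arrays were in 2.77% of the sites with −log10 q of at least 5 and in 1.21% of the weakest class, near the GC-matched 2.79% and 1.37%.

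KO-only distal sites lay in introns about as often as GC-matched sequence does. The summit was inside an annotated gene in 15170 sites (63.0%, 62.4 to 63.6), against 63.3% of GC-matched tiles and 57.4% of all distal tiles. It was in a protein-coding gene in 54.3%, in another gene only in 8.78%, and between genes in 37.0%. The nearest gene start was that of a protein-coding gene for 8713 sites and of a long noncoding RNA for 8568. Sites were closer to gene starts than GC-matched tiles: 39.3% lay at 10 to 20 kb against 33.3%, and 5.37% lay beyond 100 kb against 9.21%, with a median distance of 24432 bp. Both other sets were closer too. At 10 to 20 kb lay 47.7% of shared sites against 37.1%, and 38.1% of WT As3+-only sites against 31.6%. Beyond 100 kb these shares were 2.72% against 7.06% and 7.21% against 10.8%.

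Part of the list is distal only by the start given to the gene as a whole. Within 10 kb of the start of some annotated transcript lay 7109 sites (29.5%), and within 1 kb lay 1476 (6.13%, 5.83 to 6.44). At WT As3+-only distal sites the share within 1 kb was much the same, at 6.24% (5.61 to 6.93), and at shared distal sites it was 21.2% (19.6 to 23). This share was not computed for tiles. The chromosome 7, ESR2 and TPD52 sites, ranks 3, 5 and 4 by −log10 p, lay 148, 94 and 63 bp from a transcript start. The ESR2 summit had 19 fragments over a background of 0.749, a fold of 11.4, and the TPD52 summit 18 over 0.624, a fold of 11.7. The nearest WT As3+ interval was 43340 bp from the ESR2 site and 140629 bp from the TPD52 site. TPD52 encodes a vesicle trafficking protein.

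The other sites of the 10 with the largest −log10 p were mixed in place. The chromosome 16 and chromosome 6 arrays had 36 and 30 fragments, with WT As3+ intervals 3442 and 663 bp away. A site 17121 bp from the start of SIRPA, which encodes a receptor of myeloid cells, had 19 fragments, and one 40647 bp from DNAJB8, a chaperone gene, had 18. One in the collagen gene COL9A3 had 17 fragments and a WT As3+ interval 106 bp away. The remaining pair lay 88824 bp from DENND3 (21 fragments, 2117 bp wide) and in the noncoding gene LINC01667 (32 fragments over a background of 4.12). At the 10 kb limit, the nearest sites inside lay 10002 bp from the starts of SPSB1 and SPIRE2 (5 and 7 fragments), and the nearest outside lay 10000 bp from ZNF180 (6 fragments).

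Sites gathered in some chromosomes and regions. There were 12.0 KO-only distal sites per Mb of distal tiles, from 2.57 on chromosome X and 4.21 on chromosome 4 to 36.4 on chromosome 20 and 37.9 on chromosome 22. Set beside the number that the GC content of its tiles gives, chromosome 22 had 1.05 times as many. Chromosome 20 had 1.98 times that number (1530 against 771), and its shared distal sites 1.73 times. The WT As3+-only sites had 0.985 times theirs on chromosome 20. Chromosome X had 0.338 times the number (297 against 879), and shared and WT As3+-only sites also were few there (0.517 and 0.219). The median background at KO-only distal sites was 0.749 fragments on chromosome 20, 0.527 on X and 0.499 on chromosome 4. It was also 0.749 on chromosome 21 and 0.514 on chromosome 19, where the ratios to GC content were 0.978 and 0.940. The part of the background in these ratios was not tested, and the copy number of these chromosomes in the cells used was not analysed here.

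**Figure D5:**
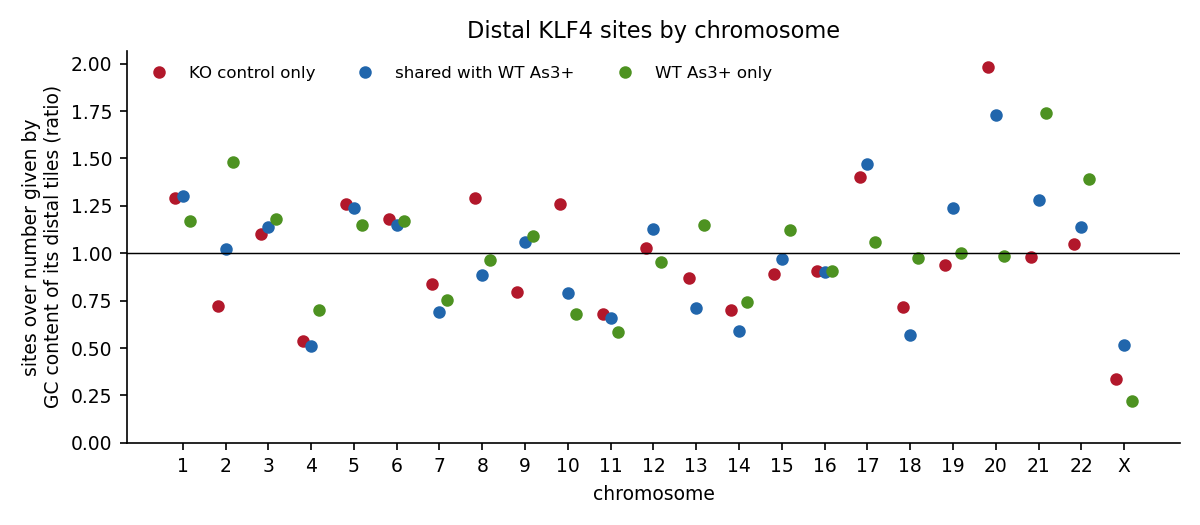
Distal KLF4 sites on each chromosome over the number that the GC content of its distal tiles gives (ratio, y axis) for KO-only (red), shared (blue) and WT As3+-only (green) sites, 1 point a set. Red and blue points are high together on chromosome 20 (1.98 and 1.73), where the green point is at 0.985, and all 3 are low on X.

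Chromosome ends held slightly more sites than their GC content gives. Within 5 Mb of an end lay 5637 KO-only distal sites (23.4%), against 21.7% of GC-matched tiles and 5.70% of all distal tiles, and 27.7% of shared sites against 32.1%. Of 2940 bins of 1 Mb, 2514 held a site, the median bin held 4, and the fullest 30 bins held 10.7% of all sites. The fullest pair adjoined each other near the end of the long arm of chromosome 8, with 186 and 155 sites against 80.7 and 66.5 by GC content. Shared distal sites in these bins numbered 6 and 9.

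When neighbours were joined at the distance commonly used to stitch enhancers into super-enhancers, 10019 sites (41.6%) stood alone and 2317 (9.63%) were in 157 stretches of 10 or more. The longest runs of sites were also on chromosome 8. The first, of 59 sites over 88539 bp, covered ADGRB1, an adhesion receptor gene, and 57 of them were in its introns. GC content gave 19.2 there, and 3 WT As3+ intervals fell inside. The second, of 45 sites over 146991 bp, held 20 in the noncoding gene ENSG00000287677, near C8orf90. The third, of 35 sites over 65278 bp, lay whole within ZC3H3, a zinc-finger gene of mRNA processing, against 16 by GC content and with 11 WT As3+ intervals inside.

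KO-only distal sites were inside 4605 protein-coding genes, 37.4% of the 12328 that have any distal tile, and 208 genes held 10 or more. The most were in RBFOX3, the neuronal splicing factor known as NeuN, with 86 sites over 0.475 Mb of distal sequence, against 52.0 by GC content. CAMTA1, a calmodulin-binding transcription activator, held 81 (41 by GC content), CDH4, the cadherin of retina and brain, 76 (48.6) and ADGRB1 57 (18.9). PTPRN2, a phosphatase-like protein of secretory vesicles, held 54, fewer than the 73.5 that its GC content gives. Next came IQSEC1, an exchange factor for ARF6, with 48 (31.7), PRDM16, a regulator of brown fat, with 47 (42.9), ZMIZ1, a PIAS-like coactivator, with 47 (24.5), TSNARE1 with 43 (26.0) and RAP1GAP2, which turns off RAP1, with 39 (16). Shared distal sites in these 10 genes numbered 0 to 9. The median fragment number of their KO-only sites was 6 to 8, and the highest single site was one of 19 fragments in CDH4.

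Per Mb of distal sequence, and among genes with at least 5 sites, the densest was SMTNL2 with 893 per Mb, on only 5 sites. The 10 densest included 3 collagen genes: COL9A3 (7 sites, 854 per Mb), COL11A2 (12 sites, 822 per Mb) and COL20A1 (11 sites, 573 per Mb). COL11A2 had 5.36 times the number given by GC content, on 12 sites against 2.24. The others were ENSG00000285629 (8 sites), ADGRB1 (57), the calcium channel gene CACNA1H (19), GRK1 of the rod photoreceptor (7), the potassium channel gene KCNH2 (10) and PLCH2, a phospholipase C (25). All 10 were above the number given by GC content, by 1.80 to 5.36 times, and they were ranked on the same counts.

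Gene lists for this cell type and treatment were read against the 37.4% of genes with a site and against GC content, for which all protein-coding genes together had a ratio of 1.02. Of 15 bronchial epithelial genes with distal sequence, 10 held a site, 23 sites in all against 20.4 by GC content (ratio 1.13, 0.714 to 1.69). Of 23 genes of the Nrf2 pathway, 12 held a site, with 25 sites against 18.5 (1.35, 0.873 to 1.99). Both intervals include 1. Of 13 KLF and SP genes, 6 held 18 sites against 9.91 (1.82, 1.08 to 2.87), and 10 of the 18 were in KLF13. Of 26 homeodomain and other developmental factors, 12 held 54 sites against 40.9 (1.32, 0.992 to 1.72). Of 26 stem cell and EMT factors, 12 held 33 sites against 41 (0.806, 0.555 to 1.13). The very long genes of common fragile sites were below the number given by GC content: 24 of 29 held a site, but with 109 sites in 35.1 Mb against 180 (0.604, 0.496 to 0.729). All these intervals count each site as independent, which sites clustered in a gene need not be. An interval that leaves out 1 is therefore not read as a departure.

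CDH1, which encodes E-cadherin, the adhesion protein of epithelia, held the most sites among the bronchial genes, 7 against 1.02 by GC content. Their fragments numbered 8, 8, 10, 6, 7, 8 and 6 along the gene, over backgrounds of 0.654 to 1.02. None had a WT As3+ interval nearer than 11631 bp, and the gene held no shared distal site. Of the 7, 5 lay within 10 kb of a transcript start, the closest at 846 bp. An Alu word was in 4 of the 7 windows and a KLF word in 2. FOXA2, a lung lineage factor, was the nearest protein-coding gene to 8 sites.

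In the Nrf2 pathway, TKT, the transketolase of the pentose phosphate pathway, held 5 sites (11, 7, 9, 7 and 9 fragments) against 1.28 by GC content. A WT As3+ interval lay 158 and 91 bp from the first and second of them and 1440 to 5434 bp from the rest. All 5 were near a transcript start, at 498, 2495, 1986, 483 and 1958 bp. The drug exporters ABCC1 and ABCC3 held 4 and 1, and ABCC3 was nearest to 9. NFE2L2, the Nrf2 gene itself, held none, with 0.275 expected inside it by its GC content, and was nearest to none. Peak lists cannot check the knockout. KLF4 was nearest to 4 sites.

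Among KLF genes, KLF13 was nearest to 30 sites, KLF6 to 17 and KLF12 to 9. Of the developmental factors, the neighbouring homeobox genes IRX2, IRX1 and IRX4 were nearest to 19, 17 and 16 sites. These genes have no distal sequence inside, so none could lie within them. Of the stem cell and EMT factors, the Hedgehog effector GLI2 held 12 (17.2 by GC content) and was nearest to 25, TWIST2 held 7 (4.02), and NOTCH1 held 1 and was nearest to 13. Of the fragile site genes, FRMD4A held 11 (7.68) and AUTS2 5 (9.77). In all, 7535 protein-coding genes (37.7%) were nearest to at least 1 site. No expected number was computed for sites nearest to a gene, here or above, so gathering near these genes was not tested.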

How the data were processed

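KLF4 ChIP-seq libraries of 4 conditions, 1 each, were analysed as the peak lists the authors deposited. Per the study's methods, 75-nt reads were aligned with BWA. The submitters' processing notes name GRCh38/hg38, whose contig names the lists use, and bcl2fastq 2.17. The peak caller and its settings are not given in the sources used here. The deposited columns used were the fold enrichment at the summit (a ratio to the local background), −log10 p and −log10 q. The deposited score repeats the −log10 q and was not used further. Read totals were not used, so depth is known only through the fragments behind each summit.

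Fragments (n) and background (λ) were recovered from fold = (n + 1)/(λ + 1) and an upper Poisson tail. Genes, transcripts and exons came from GENCODE 44. The genome was cut into tiles of 200 bp, and tiles without N whose centre passed the distance and exon limits served as background, weighted to each set's GC content in classes of 2.5 percentage points. The same weighting gave the number of sites expected by GC content in genes and regions. The steps were tested on simulated data. Because there was 1 library a condition, no test was run. The sites and gene lists were chosen with earlier results of these data known. Alu words, the split by −log10 q and the flanking windows were added after the data had been seen. Genes were named by rank (largest −log10 p, most sites, most sites per Mb, 3 genes per list and those at the distance limit and the longest stretches). Some genes that this rule picks are not reported here. The histone mark and input libraries of the study are not used here. Neighbouring sites were joined into stretches at the linking distance of super-enhancer maps. The work was done in Python 3.11.15 with pysam 0.24.0 (sequence), pandas 2.3.3 and numpy 2.4.6 (tables), scipy 1.17.1 (intervals) and matplotlib 3.10.9 (plots), after indexing with samtools 1.23.1.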

Additional observations from a re-analysis of the deposited data

How the results depend on the processing

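The number of KO-only distal sites fell to 2559 at a −log10 q of at least 5 and to 4880 beyond 50 kb from a gene start, and stayed within 1.5 times of 24066 under the other limits. The median GC content of 57.5% became 61% at −log10 q of at least 5, 57% with every transcript start, 56.5% beyond 50 kb, 57% with no WT interval within 1 kb, 59% in windows of 100 bp and 55.5% in windows of 400 bp. The intronic share of 63.0% was 59.6% at −log10 q of at least 5, 49.9% with every transcript start and 62.3% beyond 50 kb. The KLF word share of 9.86% was 9.14% at −log10 q of at least 5, 9.45% beyond 50 kb, 5.24% in windows of 100 bp and 16.8% in windows of 400 bp. The share overlapping Nrf2 KO As3+ was 0% at −log10 q of at least 5, with every transcript start and beyond 50 kb, and 0.0291% (7 sites) within 1 kb. The share of repeat-masked bases could not be computed, since the reference does not mark repeats. Sites rested on a median of 6 fragments in 1 library, which limits every statement about a single site.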
